A study of Mus musculus with 4 samples.

Results

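In droplet libraries of mouse thymocytes, 883 of 57354 barcodes were small droplets that nevertheless carried several transcripts of dividing cells. They were chosen from their counts by a fixed rule: at least 200 detected genes, 500 to 1200 UMIs (unique molecular identifiers, each one captured transcript), at most 10% of UMIs from mitochondrial genes, at least 3 UMIs summed over 7 cell-cycle genes (Cdk1, Tuba1b, Ube2c, Cks2, Top2a, Nusap1 and Pclaf) and no UMI of C1qa, C1qb or C1qc. They are called members below, and they were compared with droplets of the same UMI, gene and mitochondrial limits whose 7-gene sum was 0. The 7 genes and the C1q genes therefore describe how members were chosen and were not tested between droplet sets.

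The libraries came from thymocytes of mice aged 6 to 8 weeks, with 2 control and 2 Tox4 conditional knockout (cKO) libraries. Both groups carried 2 Tox4 alleles with loxP sites around exons 4 to 6 (Tox4;F/F), made in eggs of a C57BL/6 background, and the cKO mice also carried Lck-Cre (Tox4;F/F;Lck+), in which the proximal Lck promoter drives Cre from an early, CD4- CD8- stage of thymocytes, so that the deletion is limited to the T lineage. The study analysed 2 pairs of control and cKO mice, that is 1 mouse per library. Tox4 is a high-mobility-group box protein of a phosphatase complex. Values for single libraries are given in the order control 1, control 2, cKO 1 and cKO 2. The files held 12609, 11790, 15608 and 17347 barcodes with 42716798 to 62007453 UMIs per library, and every barcode had at least 500 UMIs, so the members lie at the lower edge of what was called a cell. Pairs of libraries shared 36 to 70 barcode sequences, 13 of the 883 member barcodes also occurred in another library, and 0 were members in 2 libraries.

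Thymocytes divide most at the step from CD4- CD8- (DN) to CD4+ CD8+ (DP) cells, when cells that have made a T cell receptor beta chain expand as blasts before they become small resting DP cells. S phase copies the DNA with clamp, helicase and nucleotide-synthesis proteins, and G2 and mitosis use cyclin B with Cdk1, the spindle kinesins and the kinetochore. Resting DP cells hold little RNA and dividing blasts hold much more, so transcripts of mitosis are usually read in large libraries. In the rule, Cdk1 (chr10:69335146-69352938) is the mitotic kinase, Cks2 (chr13:51645232-51650660) its small subunit and Ube2c (chr2:164769898-164778822) the ubiquitin-conjugating enzyme that works with the anaphase-promoting complex. Top2a (chr11:98992943-99024189) untangles sister DNA, Nusap1 (chr2:119618298-119651244) binds spindle microtubules, Pclaf (chr9:65890237-65903266) binds the replication clamp, and Tuba1b (chr15:98931425-98934565) is an alpha-tubulin that resting cells also express. Coordinates are of GRCm38, with gene models of GENCODE M21.

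Genes of G2 and mitosis are known for a shared promoter layout, a cell-cycle homology region (CHR) near the start of transcription and CCAAT boxes upstream of it. The 100 bases before the RefSeq start (GRCm38.p6) were searched on both strands for TTTGAA or TTCGAA as the CHR and for CCAAT. Cdk1, Ube2c and Top2a held both, which 367 of 27025 genes of the table did (1.36%). Cks2 and Pclaf held CCAAT boxes alone, and Nusap1 and Tuba1b held neither, against 7.18% of all genes with a CHR and 21.6% with a CCAAT box. Of the 49 other genes of the G2/M list used below, 42 matched the table, of which 11 held a CHR and 30 a CCAAT box. The S-phase list held a CCAAT box almost as often, in 19 of 31 matched genes (61.3%, against 71.4% of the G2/M list), and a CHR in 3. The 3 promoters with both motifs are shown beside that of Tuba1b, the gene of the sum that is least bound to mitosis, with capitals marking the motifs on either strand.
Cdk1, chr10:69352913-69353012 (- strand): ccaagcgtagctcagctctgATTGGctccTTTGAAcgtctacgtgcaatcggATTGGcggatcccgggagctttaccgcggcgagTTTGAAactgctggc
Ube2c, chr2:164769829-164769928 (+ strand): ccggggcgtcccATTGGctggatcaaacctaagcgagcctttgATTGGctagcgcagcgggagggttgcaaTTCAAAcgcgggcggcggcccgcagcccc
Top2a, chr11:99024190-99024289 (- strand): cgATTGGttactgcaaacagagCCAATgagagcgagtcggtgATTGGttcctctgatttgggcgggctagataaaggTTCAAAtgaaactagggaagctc
Tuba1b, chr15:98934391-98934490 (- strand): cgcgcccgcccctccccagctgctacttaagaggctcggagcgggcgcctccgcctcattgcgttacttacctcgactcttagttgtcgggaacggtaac

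Of 17282 droplets with 500 to 1200 UMIs and at least 200 genes, 12448 exceeded the mitochondrial limit (82.9, 66.8, 73 and 59.3% per library), and 4834 remained. Among these, 1103 carried C1q transcripts, which macrophages make, 1271 had a sum of 0, 1577 a sum of 1 or 2, and 883 were members (119, 117, 308 and 339 per library). Members and sum-0 droplets were of like size, with median UMIs of 708, 764, 688 and 775 in members and 692, 759, 694 and 816 in sum-0 droplets. The study removed barcodes in the lowest 2.5% of UMI totals, which, computed over all barcodes of a library, would take 35, 22, 57 and 48 members and leave the rest.

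The choice did not rest on tubulin alone. The median 7-gene sum of members was 4, 5, 4 and 5, and the highest was 25. Members carried UMIs of 2 or more of the 7 genes in 857 of 883 droplets, and 16 owed their sum to Tuba1b alone. Without Tuba1b, 585 members still reached a sum of 3. A Cdk1 UMI was found in 31.9, 35, 20.8 and 28.6% of members, beside 9.95, 8.82, 7.93 and 6.20% of C1q-positive droplets. A Top2a UMI was found in 47.9, 53.8, 54.9 and 57.5% of members and 11.9, 10.3, 17.1 and 16.4% of C1q-positive droplets. These shares show what the rule selected, with the C1q-positive droplets, chosen for macrophage transcripts at like depth, as the level found in droplets of another type.

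Levels at the threshold itself are given here once, without a test. The summed level of the G2/M list without the rule genes, in CPM (UMIs of the list per 1000000 UMIs of the droplet set), was 5489.8, 5264, 6989 and 6799 in droplets with a sum of 2 and 8271, 9775, 6975 and 9599.7 in those with a sum of 3. In droplets with a sum of 7 or more it reached 23497, 23367, 19184 and 18850. The level of the S-phase list moved from 2077, 2225, 2803 and 2958 at a sum of 2 to 3582, 4297, 3277 and 4806 at 3, and 3 libraries stepped up in the G2/M level between these sums while cKO 1 did not. The DP thymocyte list, by contrast, stood at 21258, 18925, 21119 and 17447 at a sum of 2 and 22279, 17047, 20361 and 16871 at 3.

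**Figure D1:**
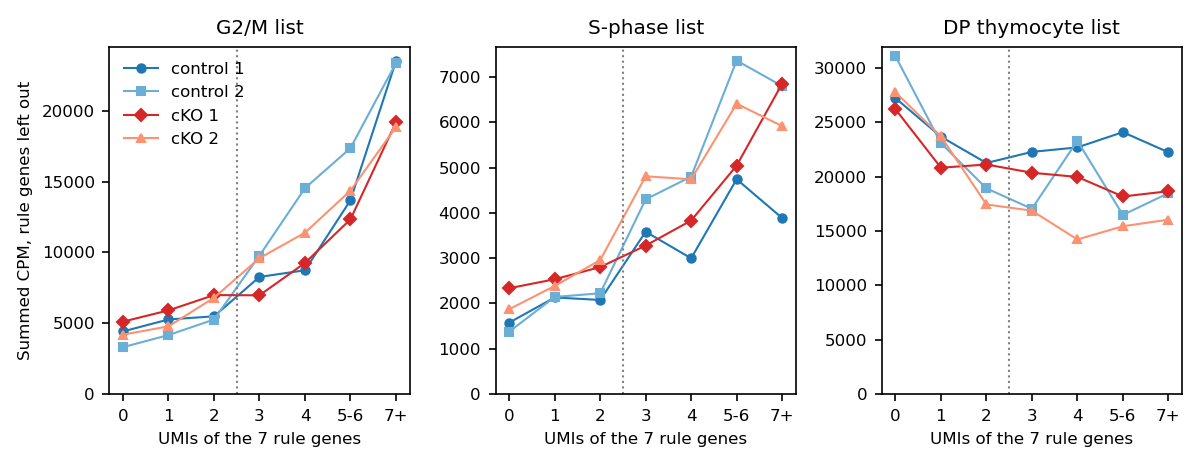
Summed CPM of the G2/M, S-phase and DP thymocyte lists (y axis, rule genes left out) by the number of UMIs of the 7 rule genes in the droplet (x axis), one line per library. The dotted line is the limit of the rule. The G2/M level at a sum of 0 is 3312 to 5116 CPM and is highest at a sum of 7 or more in every library, while the DP list is highest at a sum of 0.

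Whether Tox4 loss went with more of these droplets was asked of the share of members in the window, one value per library. Members were 14.3, 17, 17.6 and 21.7% of window droplets, with 95% exact (Clopper-Pearson) intervals of 12 to 16.9%, 14.2 to 20%, 15.8 to 19.4% and 19.7 to 23.8%, which cover counting error only. Both cKO libraries lay above both control libraries, but among the control and cKO pairs only the intervals of control 1 and cKO 2 did not overlap. The means were 15.6% ± 1.86 in control and 19.6% ± 2.93 in cKO (SD, n = 2 each), a difference of 4.01 percentage points with a two-sided exact permutation p of 0.333, the smallest that 2 against 2 libraries allow (0.389 after Benjamini-Hochberg adjustment over 7 shares tested). Of all barcodes, members were 0.944, 0.992, 1.97 and 1.95%, and of window droplets without C1q UMIs 18.9, 21.1, 24.4 and 26.3%. Control and cKO libraries were also ordered this way outside the members. Larger cells that passed the same sums at a like depth were 11.6, 9.12, 16 and 13.4% of all larger cells. A sum of 3 or more was found in 7.64, 3.54, 13.5 and 10.5% of droplets over the mitochondrial limit without C1q UMIs. It was also found in 14.4, 10.3, 22 and 21.9% of C1q-positive droplets, where macrophage transcripts led. In these 3 comparisons, too, both cKO libraries were above both control libraries, with the same exact permutation p of 0.333.

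**Figure D2:**
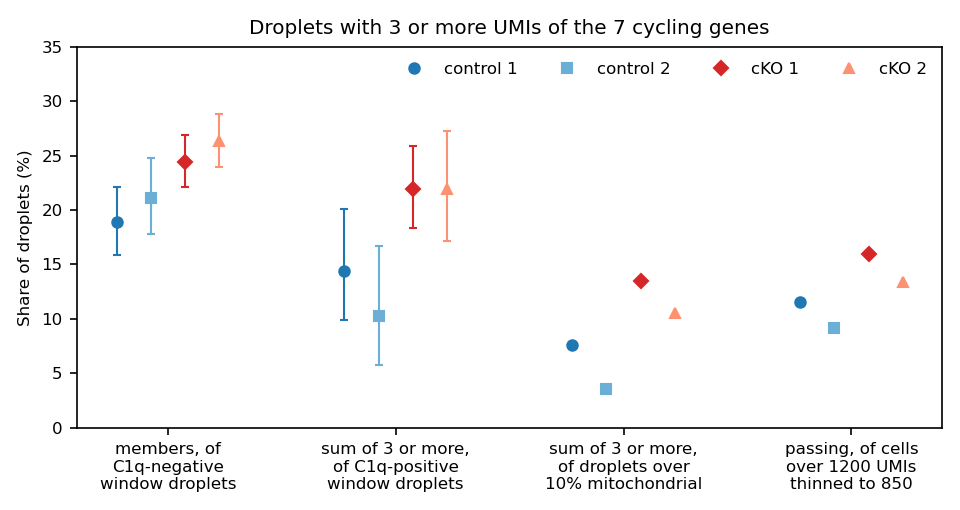
Share of droplets (y axis, %) with at least 3 UMIs of the 7 rule genes, by library (colour and marker), in 4 droplet sets (x axis): members among window droplets without C1q UMIs, C1q-positive window droplets, droplets over the mitochondrial limit, and larger cells. Bars are 95% exact binomial intervals on the first 2 sets. In each set both cKO libraries sit above both control libraries, and the C1q-positive droplets reach 22% in cKO 1.

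The share of droplets with a sum of 3 or more and no C1q UMI was read again over all droplets within the mitochondrial limit, each thinned to 500 UMIs, so that size did not set the chance of a UMI. It was 10.5, 14.5, 15 and 17.7% at 500 to 700 UMIs and 8.88, 11.1, 10.4 and 14.6% at 700 to 1200 UMIs. It was lowest at 2000 to 4000 UMIs, with 0.711, 0.528, 1.43 and 1.77%. Above 8000 UMIs it was 37.5, 36.8, 42.4 and 40.6%. In every library the window thus held a higher share of droplets with cycling-cell RNA than the droplets of 2000 to 4000 UMIs, and a lower one than the largest cells. Cells of 4000 to 8000 UMIs differed by library, with 2.53, 4.46, 4.47 and 15.2%, cKO 2 being above the other 3. Within the window, read without thinning, the share with a sum of 3 or more was lower at higher mitochondrial percentages. Without C1q-positive droplets it was 23.7, 41, 32.7 and 40.8% at up to 2.5% mitochondrial UMIs and 12.7, 10.6, 18.9 and 20.1% at 5 to 10%, a range the rule bounds.

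**Figure D3:**
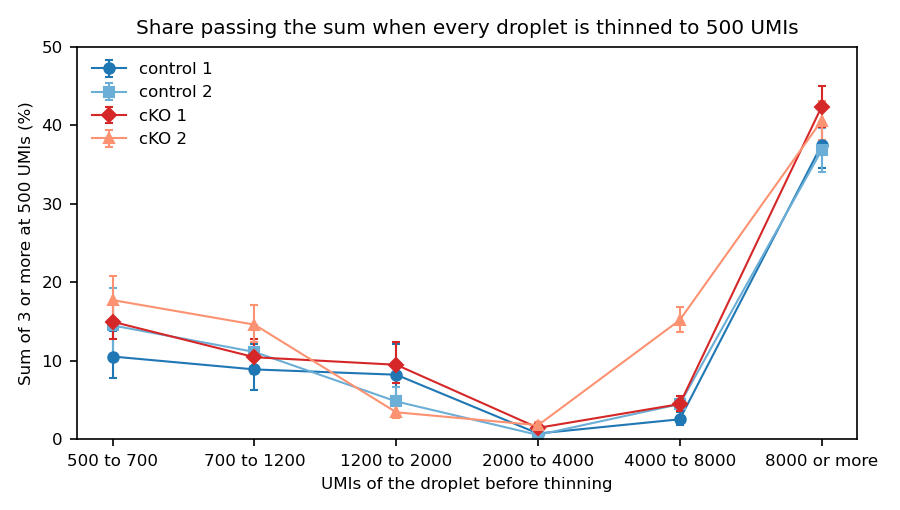
Share of droplets (y axis, %) with a sum of 3 or more and no C1q UMI after thinning to 500 UMIs, by the droplet's UMIs before thinning (x axis), one line per library with 95% exact binomial intervals. The share is lowest at 2000 to 4000 UMIs, 0.528 to 1.77%, and higher on both sides.

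The droplets chosen by 7 transcripts carried a wide set of other cell-cycle transcripts. UMIs were summed per library and droplet set, and members were compared with sum-0 droplets of the same library by edgeR's quasi-likelihood test, leaving out the 10 genes of the rule. Of 4675 genes tested, 1350 (28.9%) passed an adjusted p of 0.05, 692 higher (14.8%) and 658 lower (14.1%) in members. The count was 540 without cKO 2, 399 at 500 to 850 UMIs, 453 at a mitochondrial limit of 5% and 463 with DESeq2. Since the sets were split on genes that are transcribed together with the rest of the cycle, these calls describe what came along with the 7 transcripts and are not independent evidence that members cycle. Log2 values are differences of members from sum-0 droplets.

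Among mitotic genes, 37 of 40 tested genes of the G2/M list were higher and 0 lower, with a median of 2.28, against -0.03 for all genes tested. The summed G2/M level was 12850.1, 17393, 11051 and 14164 CPM in members and 4424, 3312, 5116 and 4196 CPM in sum-0 droplets, and the 2 sets did not overlap. Ccnb1, a cyclin B that activates Cdk1, measured 224, 369, 90.9 and 214 CPM in members and 42, 4.70, 48 and 19.2 CPM in sum-0 droplets, a log2 difference of 2.98 ± 0.50 (SE). Members of cKO 1 had the lowest Ccnb1 of the 4 libraries, and every member value exceeded every sum-0 value. The other cyclin B, Ccnb2, measured 258, 260.2, 204 and 221 CPM against 42, 47, 52 and 13.7 (2.78 ± 0.27). Ccna2, the S and G2 cyclin, was at 314, 390.4, 156 and 206 CPM against 48, 0, 36 and 41.1, with no UMI in the sum-0 droplets of control 2 (3.00 ± 0.40). For these cyclins no member library overlapped a sum-0 library. The share of all genes tested without overlap between droplet sets was not counted. Statements that droplet sets do not overlap, here and below, therefore only describe the values.

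The remaining genes with the largest rises were mostly parts of the spindle and kinetochore. Cenpf, a kinetochore protein, rose by 3.01 ± 0.23 on the log2 scale, with 325, 401, 316 and 328 CPM in members. Spc24, a subunit of the kinetochore's NDC80 complex, rose by 2.73 ± 0.28 and ranged from 135 to 445 CPM. Kif11, the kinesin that pushes spindle poles apart, rose by 2.85 ± 0.28, Tpx2, which activates the Aurora A kinase on the spindle, by 2.86 ± 0.34, and Pbk, a mitotic kinase, by 3.16 ± 0.30. All 8 were higher in members in 4 of 4 libraries, which the rule for naming them required. Smc4, a condensin subunit among the most abundant genes of the list, was higher by only 0.48 ± 0.15 and lost its call in 7 of 17 refits.

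Replication genes moved in the same direction. Of the S-phase list, 29 of 32 tested genes were higher and 0 lower (median 1.75), with a summed level of 3689, 6051, 4491 and 5551 CPM in members against 1577, 1378, 2336 and 1873 in sum-0 droplets. Control 1 had the lowest S-phase level among members and control 2 the highest. Pcna, the replication clamp, measured 314, 726, 481 and 608 CPM against 204, 84.7, 176 and 156 (1.88 ± 0.27). Rrm2, a ribonucleotide reductase subunit, differed by 2.54 ± 0.32, while Cdca7, another abundant gene of the list, did not pass the test (0.32 ± 0.18, edgeR adjusted p = 0.192). Thinned to 500 UMIs, members held a mean of 1.82, 2.98, 2.12 and 2.65 S-phase and 6.24, 9, 5.22 and 7.03 G2/M UMIs, against 0.684 to 1.21 and 1.74 to 2.60 in sum-0 droplets. UMIs of both lists were present in 81.5, 85.5, 78.6 and 83.8% of members, and in 38.3 to 61.4% of sum-0 droplets at the same depth, so this share is read against that background and not as a phase of single droplets.

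Chromatin and tubulin genes known to be abundant in dividing thymocytes followed. Of that list, 18 of 20 genes were higher. Hmgb2, a chromatin protein that bends DNA, measured 3824, 5346, 3456 and 4435 CPM in members against 1001, 517, 1152 and 779 in sum-0 droplets (2.41 ± 0.32). H2afz, the histone variant H2A.Z, was 1.51 ± 0.16 higher and its chaperone Anp32e 1.42 ± 0.19. Ptma, prothymosin alpha, was 1.23 ± 0.13 higher, Dek, a chromatin protein, 1.48 ± 0.18, and Hmgb1 1.02 ± 0.12. Of a list of known proliferation genes that the study had used for a score in these samples, 16 of 17 were higher. Ribosomal protein genes were higher in 48 of 77 cases and lower in 0, with a median of 0.36. Of the immediate-early and heat-shock list, 2 of 9 tested genes were higher and 1 lower, with a median of -0.32. The 2 higher ones were chaperones. Hsp90aa1 was 1.31 ± 0.16 and Hspa8 0.71 ± 0.14 higher, while Jund, an immediate-early transcription factor, stood at -0.30 ± 0.16 and did not pass.

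Members also carried the transcripts of DP thymocytes. The summed level of the DP list was 22628, 18412, 19495 and 15928 CPM in members, lower than the 27229, 31086, 26206 and 27762 CPM of sum-0 droplets in each library, and 17 of 28 genes of the list were lower in members and 0 higher. C1q-positive droplets held 9826 to 14356 CPM of the list, below every member library. The T cell receptor beta constant genes did not pass the test, with 0.05 ± 0.12 for Trbc1 and -0.17 ± 0.11 for Trbc2. Trbc2 stood at 4239, 4120.4, 4213 and 3813 CPM in members. Satb1, a chromatin organiser of thymocytes, was lower in members (-0.65 ± 0.12, 1873, 1594, 1516 and 1275 against 2752, 2799, 2296 and 2479 CPM), and the 2 sets did not overlap. Thinned to 500 UMIs, a UMI of Cd8b1, the CD8 beta chain, was found in 39.5, 21.4, 36.4 and 24.2% of members and 49.8, 49.4, 43.4 and 47.4% of sum-0 droplets, and one of Rag1, which cuts receptor genes for recombination, in 35.3, 23.1, 28.6 and 21.5% against 47.1, 46.5, 39.5 and 45.2%. C1q-positive droplets gave 25.9, 20.6, 24.6 and 22.3% for Cd8b1 and 31.8, 11.8, 22.2 and 14.2% for Rag1 at the same depth, so the Cd8b1 shares of members in control 2 and cKO 2 and the Rag1 share in control 1 did not stand clear of the level in droplets of another type.

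The mature T cell list summed to 852, 824, 1000.3 and 578 CPM in members and 1661, 1976, 1672 and 1895 CPM in sum-0 droplets, and the 2 sets did not overlap. Of its genes 2 of 9 tested were lower and 0 higher, against 14.1% lower of all genes, and 0 of 9 had a value above 0 (median -0.60). Ccr9, the receptor for the epithelial chemokine Ccl25, measured 482, 293, 416 and 210.0 CPM in members against 929, 1251, 1012 and 1278 (-1.65 ± 0.18), and Cd5, a surface molecule that rises with receptor signalling, was -1.20 ± 0.31. Itm2a did not pass (-0.60 ± 0.25). Only 3 of 12 DN and 3 of 9 gamma-delta T genes were abundant enough to test, of which 1 DN gene was lower and 1 gamma-delta gene higher.

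Transcripts of other thymic cells were present in members at low levels. The summed macrophage list without C1q genes was 774, 639.8, 931 and 645 CPM in members and 905, 870.3, 1079.9 and 869 CPM in sum-0 droplets, against 22807, 33063, 18913 and 20246 CPM in C1q-positive droplets, a gap that the C1q limit of the rule sets. Apoe, a lipid carrier of macrophages, was 0.47 ± 0.18 (edgeR adjusted p = 0.0497) and lost its call in 11 of 17 refits and turned negative in 1, while the lysosomal protease Ctsd (-1.08 ± 0.23) and the selenium carrier Selenop (-1.13 ± 0.29) were lower in members. Of the dendritic cell list, 4 of 8 genes were lower and 0 higher, among them Cst3, a protease inhibitor (-0.90 ± 0.17), Cd74, the invariant chain of MHC class II (-0.56 ± 0.16), and H2-Aa, an MHC class II chain (-0.64 ± 0.19). Cd74 and H2-Aa turned to 0.065 and 0.17 when members began at a sum of 2, and each lost its call in 6 other refits, among them those without control 1 and without cKO 2. The dendritic list stood at 4947, 11484, 2977 and 3695 CPM at a sum of 2. Epithelial and stromal genes summed to 706, 260.2, 519.6 and 376 CPM in members and 1067, 372, 636 and 365 CPM in sum-0 droplets, where 1 of 5 tested genes was lower and the rest did not pass. The B cell list summed to 586 to 1204 CPM and the neutrophil list to 18.4 to 113 CPM in members, with 1 of 3 B cell genes lower and 0 of 2 neutrophil genes called. Erythroid genes stood apart in cKO 1, with 505, 401, 3824 and 556 CPM in members, and 0 of 5 passed. Of the list of p53 targets and apoptosis genes, 1 of 9 was higher and 2 lower. Of all genes tested, 14.8% were higher and 14.1% lower, the background for each list count against sum-0 droplets.

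**Figure D4:**
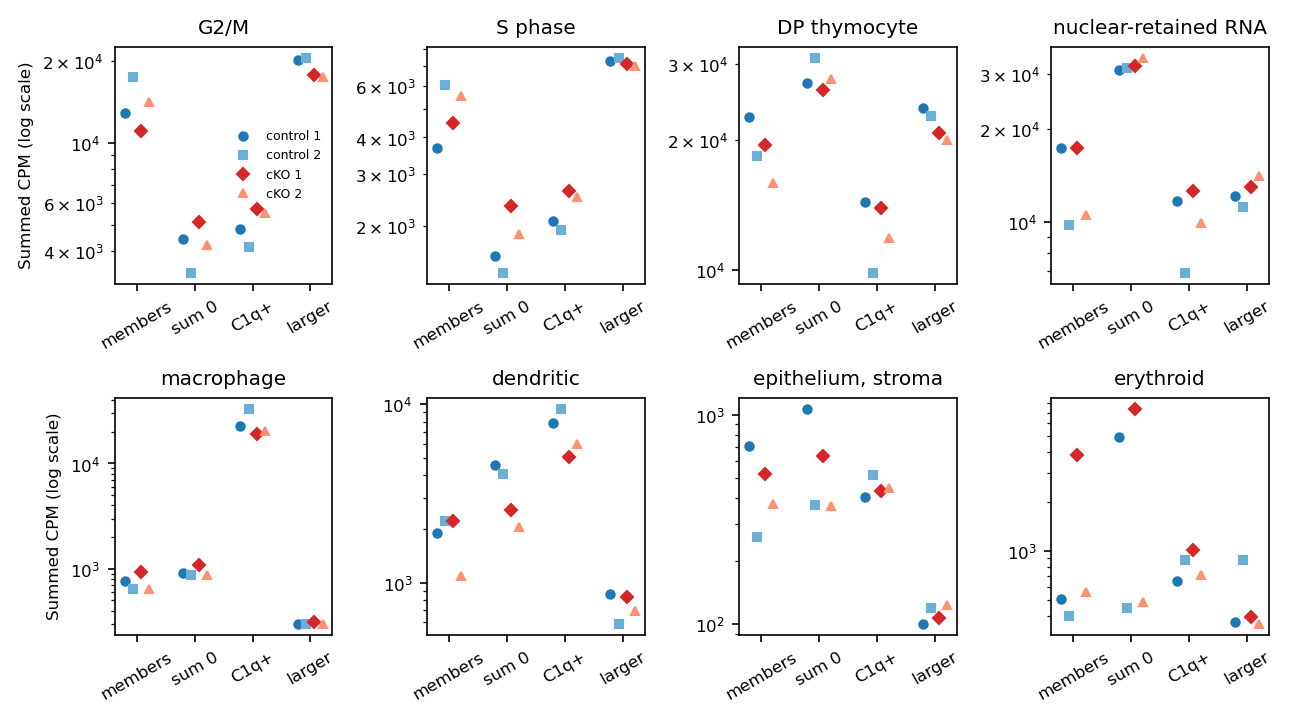
Summed CPM (y axes, log scale, each panel with its own range) of 8 gene lists, rule and C1q genes left out, in members, sum-0 droplets, C1q-positive droplets of the window and larger cells that pass the sums after thinning (x axis), one marker per library. Members lie between sum-0 droplets and larger cells for the G2/M and S-phase lists, and nearer to sum-0 droplets than to larger cells for macrophage and epithelial genes.

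RNA that stays in the nucleus was scarcer in members than in sum-0 droplets. Of 5 nuclear-retained RNAs tested, 3 were lower and 0 higher. Malat1, a long noncoding RNA of nuclear speckles, measured 12334, 7026, 13082 and 6369 CPM in members and 26096, 27393, 27406 and 29563 CPM in sum-0 droplets (-1.49 ± 0.14). Among members the libraries of replicate number 2, of both genotypes, had the lower Malat1, while sum-0 droplets did not differ in this way. Kcnq1ot1, a noncoding RNA that silences genes of its imprinted domain, was at 100.9, 108, 65 and 88.4 CPM against 216, 419, 272 and 433 (-1.87 ± 0.22). Gm42418, which overlaps ribosomal RNA sequence, did not pass (0.14 ± 0.12).

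The lower Malat1 was uneven across droplets. No Malat1 UMI at all was found in 1, 31, 7 and 41 members, which is 0.840, 26.5, 2.27 and 12.1% of members, against 0.448, 8.18, 0.301 and 6.71% of sum-0 droplets. Members without Malat1 were therefore mostly droplets of control 2 and cKO 2. In those 2 libraries their G2/M level was 19112 and 16735 CPM, beside 16798 and 13815 CPM in members with Malat1. Their DP list level was 15104 and 14079 CPM, beside 19556 and 16179. C1q-positive droplets of the same 2 libraries also lacked Malat1 in 30.1 and 15.3% of cases, and larger cells passing the sums did in 2.82 to 6.08% over the 4 libraries. These are descriptions of droplets sorted by one transcript, and they were not tested.

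The other largest falls were in Gm4258 (-2.18 ± 0.19, 269, 141, 303 and 147 against 1019, 1171, 944 and 998 CPM), A430035B10Rik (-2.13 ± 0.23) and A430106G13Rik (-1.88 ± 0.27). Pag1, a membrane adaptor that recruits the kinase Csk, stood at -1.86 ± 0.25, Txk, a Tec-family kinase of T cells, at -1.85 ± 0.25, Rb1cc1, a scaffold that starts autophagy, at -1.84 ± 0.28, and Ano6, a membrane scramblase, at -1.81 ± 0.29 on the log2 scale. All of these genes were lower in members in 4 of 4 libraries, which the rule for naming them required. Genes called lower had longer annotated transcripts, with a median of 5.0 kb for the longest transcript, than genes called higher (2.23 kb) or all genes tested (3.23 kb). Spearman's rho between length and log2 difference was -0.39 across 4673 genes, which share droplets and are not independent. Mitochondrial genes made up 4.08, 3.62, 4.31 and 4.68% of member UMIs and 5.08, 5.68, 5.56 and 5.85% of sum-0 UMIs, within the limit the rule set, and 6 of 13 were lower.

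How members differed from larger cells with cycling-cell RNA was asked by thinning cells of over 1200 UMIs to 850 UMIs and applying the same sums. The 4086 larger cells that passed (659, 790, 1064 and 1573) had medians of 11607, 10794, 11089.5 and 8468 UMIs before thinning. Their 7-gene total was 8479.9, 8679, 7966 and 7687 CPM, above the 6705, 7937, 6444 and 7179 CPM of members in every library. The rule set only a minimum for both sets, and the cause of this gap was not tested. The part of this gap in the cell-cycle differences below was not tested. Of 6150 other genes, 468 (7.61%) passed edgeR's test, 212 higher (3.45%) and 256 lower (4.16%) in members. The count was 225 without cKO 1 and 255 without control 1. DESeq2 called 160 genes, 107 higher and 53 lower, and without the filter on low counts the split was 158 higher and 394 lower. The UMI total, which the rule used, separates the 2 sets, and log2 values are now differences of members from larger cells.

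Other cell-cycle genes were lower in members or did not pass, and none of the G2/M and S-phase lists was higher. Of the G2/M list, 20 of 49 genes were lower and 0 higher (median -0.50), with a summed 20207, 20524, 17744 and 17495 CPM in larger cells. Of the S-phase list, 13 of 43 were lower and 0 higher (median -0.59), with 7291, 7479, 7099.7 and 6995 CPM in larger cells. Mki67, the proliferation antigen that coats mitotic chromosomes, measured 280.3, 629, 307 and 402 CPM in members and 882, 904, 883 and 1044 in larger cells (-1.26 ± 0.13, edgeR adjusted p = 5.54e-09), with no overlap. Hist1h2ap, a replication-dependent H2A histone whose reads may be shared with near-identical copies, measured 1615, 1464, 1256 and 1175 against 4492, 3467, 3895 and 2881 CPM (-1.42 ± 0.08). Cenpe, a kinetochore kinesin, was -1.16 ± 0.17, Kif23, a kinesin of cytokinesis, -1.13 ± 0.21, and Hmmr, a spindle protein, -1.12 ± 0.21. These mitotic genes all lay lower in members, whereas Smc4 (-0.20 ± 0.09), Anp32e (-0.19 ± 0.11) and Pcna (-0.26 ± 0.14) did not pass.

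Smaller differences ran the same way in abundant genes. Rrm2 was -0.80 ± 0.13 and Slbp, which binds histone mRNA, -0.87 ± 0.15. H2afz was -0.54 ± 0.08, Dek -0.52 ± 0.12, Hmgb2 -0.39 ± 0.08, Ptma -0.34 ± 0.08 and Hmgb1 -0.26 ± 0.07, of which Hmgb2 lost its call in 5, Ptma in 4 and Hmgb1 in 10 of 16 refits. Kcnq1ot1 (-2.01 ± 0.19), the noncoding RNA Dleu2 (-1.79 ± 0.22) and the endoplasmic reticulum chaperone Hsp90b1 (-1.18 ± 0.19) were also lower. Malat1 did not pass (-0.21 ± 0.26, though it did without the filter on low counts, edgeR adjusted p = 0.0093), with 10222, 9719, 10983 and 11866 CPM in larger cells, whereas Gm42418 was higher in members (4575, 2624, 3884 and 4034 against 1487, 979.9, 1454 and 1559 CPM, 1.45 ± 0.08). Of the DP list, 10 of 28 genes were lower and 2 higher, with Trbc2 at -0.31 ± 0.07 and neither Satb1 (-0.08 ± 0.08) nor Trbc1 (-0.16 ± 0.08) passing. Genes called higher had a median transcript length of 1.72 kb and genes called lower 3.81 kb, against 3.28 kb for all tested.

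Genes of epithelial, macrophage and dendritic cells were higher in members than in larger cells. Tbata, a gene of thymic stroma, measured 718, 163, 437 and 332 CPM in members and 12.5, 13.4, 16.6 and 27.7 CPM in larger cells, a log2 difference of 4.32 ± 0.23 (edgeR adjusted p = 2.16e-16). The keratins Krt8 and Krt18 of epithelium were higher by 3.96 ± 0.35 and 4.05 ± 0.35, with 179, 75.9, 121 and 103 and 157, 65.1, 143 and 111 CPM in members. Ccl25, the epithelial ligand of Ccr9, was higher by 1.73 ± 0.29, and 4 of 5 tested epithelial and stromal genes were higher. Levels of these genes differed among libraries, control 1 being highest and control 2 lowest for Tbata, Krt8, Krt18 and Ccl25. Of the macrophage list, 5 of 8 were higher, led by Apoe (314, 228, 320.4 and 243 against 44.6, 44.7, 59.7 and 53.1 CPM, 2.40 ± 0.18), and of the dendritic list 5 of 7, among them Cd74 (1.74 ± 0.15), H2-Aa (1.66 ± 0.21), H2-Eb1, another MHC class II chain (1.72 ± 0.21), and Cst3 (0.77 ± 0.13). Fabp5, a fatty acid carrier, was higher by 1.93 ± 0.14, the protease inhibitor Cstb by 2.07 ± 0.17 and the calcium-binding S100a11 by 2.11 ± 0.18.

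Tbata and Krt8 were also found in the other droplets of the window. Sum-0 droplets held 707, 89.4, 472 and 170.0 CPM of Tbata and 258, 89.4, 160.0 and 76.8 CPM of Krt8, in the same order of libraries for the 2 highest, and C1q-positive droplets held 247 to 411 and 81.9 to 124 CPM. All larger cells together, thinned alike and not selected by the sums, held 31.1 to 63.7 CPM of Tbata and 11 to 18.4 CPM of Krt8. For these 2 genes, members, sum-0 and C1q-positive droplets of every library lay above all larger cells. Macrophage genes were not compared this way, since all larger cells kept C1q-positive cells. The part of RNA outside the captured cell in these levels was not tested.

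**Figure D5:**
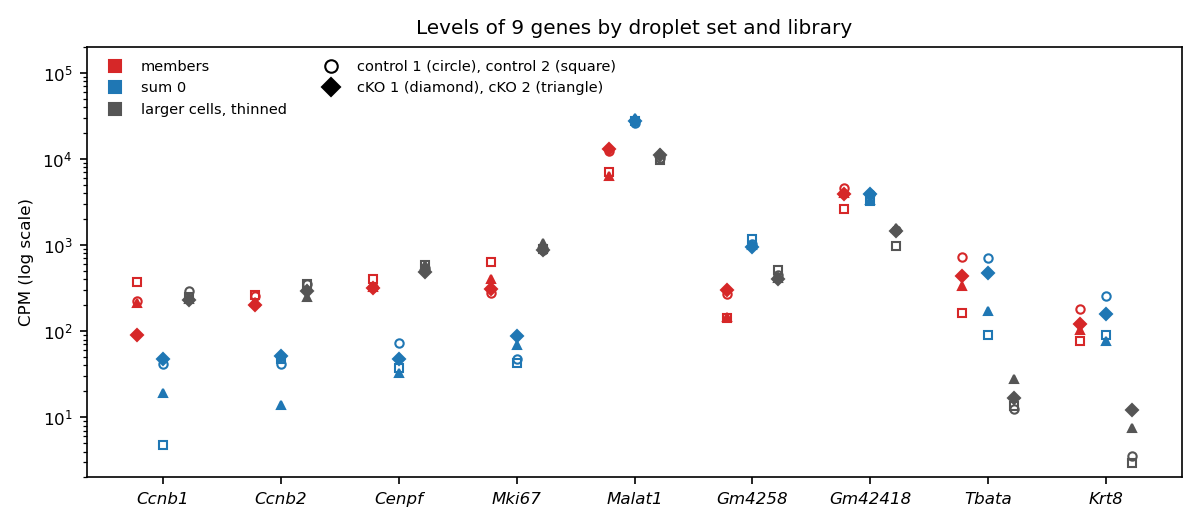
CPM (y axis, log scale) of 9 genes (x axis) in members (red), sum-0 droplets (blue) and larger cells passing the sums after thinning (grey), one marker per library. Cyclins, Cenpf and Mki67 are higher in members than in sum-0 droplets, Malat1 and Gm4258 are lower, and Tbata, Krt8 and Gm42418 overlap between the 2 small sets and are lower in larger cells.

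Within members, cKO and control libraries were compared over the 4 sums. Tox4 itself measured 78.5, 75.9, 52 and 88.4 CPM in members, from 7, 7, 12 and 24 UMIs, a log2 difference of cKO from control of -0.05 ± 0.47. The kit reads transcripts at their 3′ end and the floxed exons 4 to 6 lie inside the gene, so this level does not check the deletion. Of 2813 genes tested, 0 passed edgeR's adjusted p of 0.05 (0%), 144 had an unadjusted p under 0.05, and DESeq2 also called 0. Both cKO libraries lay below both controls for Ccna2 (314, 390.4, 156 and 206 CPM, -0.88 ± 0.27), Ccnb1 (-0.87 ± 0.39), lowest in cKO 1, and Ccnb2 (-0.22 ± 0.27), which turned to 0.33 at 850 to 1200 UMIs and 0.0435 at a mitochondrial limit of 5%. Cd8a, the CD8 alpha chain, measured 1020.4, 716, 619 and 457 CPM, again lower in both cKO libraries than in both controls (-0.63 ± 0.24). Cd8a had this order outside members too, with 1289, 1200, 760 and 905 CPM in sum-0 droplets and 1110, 943, 766 and 651 CPM in larger cells. Cd8b1 was 0.04 ± 0.30 with overlapping groups. Groups did not overlap in 1025 of all tested genes (36.4%), the background against which these 4 stand. The edgeR adjusted p of these 6 genes lay between 0.837 and 0.991. Of the G2/M list, 8 of 38 tested genes were above 0 (median -0.24, all genes tested 0.01), of the S-phase list 15 of 29, and of the ribosomal protein genes 77 of 77 (median 0.27), with no gene of any list passing the test in this fit. Ribosomal protein genes held a larger share of UMIs in both cKO libraries outside members too. That share was 17.9, 16.6, 19.4 and 18.4% in sum-0 droplets and 18.3, 17.7, 21.2 and 20% in all larger cells. Cdk1, whose level the rule helped to set, stood at 527, 586, 329 and 446 CPM and was not read as a genotype difference.

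Whether the genotype difference in members departed from that in sum-0 droplets was tested as an interaction. Of 4675 genes, 0 passed (0%), 160 had an unadjusted p under 0.05, and DESeq2 called 0. With the replicate number as a block, edgeR called Hba-a1, Hba-a2 and Hbb-bs. The interaction called Hba-a1, Hba-a2 and Hbb-bs, with a higher difference of cKO from control in members than in sum-0 droplets, in edgeR fits without control 2, without cKO 1, without the filter on low counts and without Tuba1b in the sum. Hba-a2 and Hbb-bs were called without cKO 2, beside Gm26917, and at 850 to 1200 UMIs, and Hba-a2 without the C1q limit. Without control 1 the 1 call was Ccna2. Control and cKO libraries of members did not overlap in 34.2% of these genes. Erythroid genes, which include the haemoglobin chains and were singled out after their values were seen, summed to 505, 401, 3824 and 556 CPM in members and 4928, 447, 7379 and 488 CPM in sum-0 droplets, high in cKO 1 in both sets and in control 1 in sum-0 droplets. With cKO 2 left out, Hbb-bs, Hba-a1 and Hba-a2 were the 3 genes called between cKO and control members, in a fit that sets the 1 library cKO 1 against 2 controls and assumes that it varies as they do.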

How the data were processed

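Thymocytes were captured with the 10x Chromium 3′ v3 kit. As deposited, a table gives the UMI count of every gene in every barcode, not normalized, which the authors made with cellranger count 6.1.1 (default parameters, GRCm38/mm10). All 32285 features and 57354 barcodes of the 4 libraries were read as deposited. Each library was assigned to control or cKO from its genotype label.

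Members, sum-0 droplets and C1q-positive droplets were taken by the limits given above, before any other filter. No doublet caller was run, although the study removed doublets and extreme UMI totals. Residual RNA from outside the captured cell was not modelled. The members and the gene lists were chosen with earlier results of these data known.

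UMI counts were summed per library and droplet set and tested with edgeR 4.0.16 (quasi-likelihood F test, TMM scaling, filterByExpr, library as a term between droplet sets, R 4.3.3) with Benjamini-Hochberg adjustment over all genes tested. The SE of a log2 difference was its absolute value divided by the square root of the F statistic, so it does not alone give the p-value. The 10 genes of the rule were left out of list counts and of both comparisons between droplet sets and, as they are 0 or bounded by the rule in sum-0 droplets, out of the interaction test. Cells of over 1200 UMIs were thinned without replacement to 850 UMIs (seed 1). Shares were compared by exact permutation over libraries, and their 95% intervals cover counting error only. Named genes were the 8 called genes with the largest log2 difference in each direction, at a mean of at least 100 CPM and with 1 direction in 4 of 4 libraries, the 3 most abundant genes of a list, and 7 preset genes for the genotype comparison, of which Cdk1, a gene of the rule, was in the fit but is given without its test. Not all of the genes this gives are printed. The scripts were tested on simulated counts. Alternatives changed the limits of the rule, the UMI window, the scaling, the filter and the test (DESeq2 1.42.0), left out each library, and added the replicate number as a block.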

Additional observations from a re-analysis of the deposited data

How the results depend on the processing

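The cKO minus control difference in the members' share stayed positive under every alternative run, from 1.56 to 6.93 percentage points (1.94 to 6.08 with each library left out), and 2 against 2 libraries cannot pass a threshold. The groups overlapped in some alternatives, where control 2 lay above cKO 1. At a sum of 4 or more, shares were 8.54, 12.9, 9.76 and 14.8%. Without Tuba1b in the sum they were 8.66, 12.6, 10.9 and 15.1%. At a mitochondrial limit of 5% they were 17.4, 24.9, 21.7 and 29.7%. The exact permutation p was 0.667 in each of these. The 1350 genes called between members and sum-0 droplets became 399 at 500 to 850 UMIs, 453 at a mitochondrial limit of 5% and 463 with DESeq2, and 540 (without cKO 2) to 1259 with each library left out. The 468 genes called against larger cells became 290 at the 5% limit, 160 with DESeq2, 805 without the C1q limit and 811 at a sum of 2 or more, and 225 (without cKO 1; 255 without control 1) to 371 with each library left out. The genotype test within members, with 0 calls, gave 3 without the filter on low counts, 6 at a sum of 2 or more and 0 to 3 with each library left out, the 3 being Hba-a1, Hba-a2 and Hbb-bs without cKO 2, whose members had fewer haemoglobin UMIs than those of cKO 1. The interaction test, with 0 calls, gave 2 at 850 to 1200 UMIs, 3 without Tuba1b in the sum, 1 without the C1q limit and 3 without the filter, all haemoglobin genes, and 1 to 3 with each library left out (Ccna2 alone without control 1, and 3 without control 2, without cKO 1 or without cKO 2). For the other changed counts the cause was not tested.

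The study analysed 2 pairs of mice, but the sources do not tie the replicate numbers to the pairs. The deviations of same-numbered members correlated at r = 0.148 across 2813 genes. With the replicate number as a block, the share differed by 4.01 percentage points, 6 ribosomal protein genes, all higher in cKO, were called within members and 3 haemoglobin genes in the interaction.

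Over 43 named genes and 730 refits against sum-0 droplets, 44 refits lost a call and 5 gained one (Itm2a in 4, Jund in 1). Over 35 genes and 560 refits against larger cells, 29 lost a call and 3 gained one (Smc4, Trbc1 and Malat1 in 1 each). Against sum-0 droplets the largest adjusted p over the refits was 0.748 for Apoe (each library left out in turn among them), 0.871 for Cd74 and 0.498 for H2-Aa (without control 1, without cKO 2), 0.392 for Smc4 (without control 1, control 2 or cKO 2), 0.0907 for Cd5 and 0.093 for Hmgb2 (both without cKO 2), 0.67 for Cst3, 0.174 for Hspa8, 0.145 for Selenop, 0.14 for Malat1 and 0.105 for Rrm2. Against larger cells it was 0.258 for Hmgb1 (without control 1, control 2 or cKO 1), 0.0898 for Hmgb2 and 0.178 for Ptma (without control 1, without cKO 1), 0.119 for Trbc2 (without control 1, without control 2), 0.0806 for Dek (without control 1), 0.121 for Cst3 and 0.268 for Cd74. These p-values are edgeR's or DESeq2's. Against sum-0 droplets refits changed sign for Trbc1 (-0.14 at 500 to 850 UMIs and -0.013 at a sum of 2 or more), Apoe (-0.35 without the C1q limit), and, at a sum of 2 or more, Cd74 (0.065), H2-Aa (0.17) and Gm42418 (-0.039). Against larger cells Malat1 ranged from -0.37 to 0.0039 with each library left out. Within members, cKO against control, Tox4 turned to 0.0047 without the C1q limit and 0.077 without the filter, and to 0.0197 and 0.0087 without control 1 and control 2. Ccnb2 turned to 0.33 at 850 to 1200 UMIs and 0.0435 at the 5% limit. Cd8b1 turned to -0.087 at 500 to 850 UMIs, -0.017 at the 5% limit, -0.029 without the C1q limit, -0.16 at a sum of 2 or more and -0.0064 at a sum of 4 or more, and ranged from -0.34 to 0.73 with each library left out. Without the filter the median log2 value of all genes tested stood at -0.19 (sum-0 droplets), -0.12 (larger cells), 0.24 (genotype) and 0.18 (interaction). Members gave 119 to 339 droplets per library, which limits what single genes at low counts can show.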
